A study of Mus musculus with 6 samples.

Results

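Long noncoding RNAs (lncRNAs) are transcripts with no annotated protein product, and 262 of them were taken as expressed in monocytes sorted from mouse B16F10 melanomas. They were chosen by their mean level, taking every row of the deposited gene table typed as lncRNA with a mean of at least 2 CPM over the 6 libraries (CPM, counts per 1000000 of the library's total count). This left 262 of 10055 lncRNA rows, of which 3481 had a count in any library, in a table of 56980 genes. The level that chose the members is therefore a description. At the edge of the rule, Gm38190, Gm49476 and 2810408I11Rik had 2.04, 2.01 and 2.01 CPM just inside, and Gm20633, Tnfsf13os and Gm26549 had 1.98, 1.98 and 1.97 CPM just outside.

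The libraries were made from total RNA of monocytes gated as CD11b+, Ly6C-high and Ly6G-, out of tumours grown from B16F10-mCherry, a mouse melanoma line. The treated group had LNP-Gsdme, a lipid nanoparticle treatment named for gasdermin E, a protein that forms pores in the cell membrane once a protease has cut it (3 libraries). Its control had LNP-GFP, named for green fluorescent protein (3 libraries). Both groups are labelled wild type, and the labels used here give no dose, timing or age. Whether each library is a separate animal is not stated either, so the tests read the spread between libraries, whatever its source.

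LncRNAs act in several ways. Some, such as Malat1, stay in the nucleus with splicing factors or chromatin. Others silence the neighbouring genes of an imprinted domain, are cut into microRNAs or small nucleolar RNAs, or mainly mark the activity of the promoter they share with a coding gene. In monocytes and macrophages a few, including AW112010, Morrbid and Ptgs2os2 (lincRNA-Cox2), are known for roles in inflammation or myeloid cell survival.

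Among the best known members that changed were the precursors of microRNAs, so their mature products are shown here. MicroRNAs choose targets mainly through the seed, bases 2 to 8, given in capitals. Mir155hg, the host of miR-155, fell, and Mir17hg, the host of the miR-17 to miR-92 cluster, rose. The sequences are those of RefSeq on GRCm38.p6 (plus strand, chr16:84714143-84714202 for the miR-155 pair and chr14:115043684-115044496 for the cluster).
miR-155-5p: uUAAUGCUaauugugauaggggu
miR-155-3p: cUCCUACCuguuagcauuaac
miR-17-5p: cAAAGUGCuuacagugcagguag
miR-20a-5p: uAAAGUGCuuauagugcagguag
miR-18a-5p: uAAGGUGCaucuagugcagauag
miR-19a-3p: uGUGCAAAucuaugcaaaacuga
miR-19b-3p: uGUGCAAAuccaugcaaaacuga
miR-92a-3p: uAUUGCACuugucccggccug
Within the cluster, miR-17-5p and miR-20a-5p share the seed AAAGUGC, and miR-19a-3p and miR-19b-3p share GUGCAAA. The seed of miR-155-5p, UAAUGCU, is held by no other sequence in this set. All values that follow are for the host transcripts, and mature microRNAs were not analysed here.

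Total counts were 15991826 to 18751784 in LNP-Gsdme and 20233559 to 22932095 in LNP-GFP, so that 2 CPM stands for 32.0 to 45.9 counts. All 8 monocyte markers checked were detected, with summed levels of 7003 to 8867 CPM in LNP-Gsdme and 6622 to 7749 CPM in LNP-GFP. Of these 8, Ly6c2, Plac8 and Fcgr1 rose (log2 fold changes 2.66, 0.89 and 0.86) and 0 fell; Lyz2, the marker with the most counts, averaged 2699 CPM in LNP-Gsdme and 3609 CPM in LNP-GFP, and Csf1r 847 CPM in LNP-Gsdme and 1100 CPM in LNP-GFP, without passing the test. Gsdme itself averaged 3.13 ± 0.382 CPM in LNP-Gsdme and 3.68 ± 0.801 CPM in LNP-GFP (SD, n = 3 each), a log2 fold change of -0.26 ± 0.22 (SE) with an edgeR quasi-likelihood adjusted p of 0.450. LNP-GFP 3 was most often the middle library of its group. It lay between LNP-GFP 1 and LNP-GFP 2 in 67.7% of 10932 well covered genes. For the other 5 libraries, each set against the rest of its group, the share was 16.1 to 37.6%. Shares within a group are not independent, since a gene has a single middle library. The median squared distance of LNP-GFP 3 from the best weighted mean of LNP-GFP 1 and LNP-GFP 2 was still 1.96 times the counting variance. Each count of changed lncRNAs is therefore given with that library and without it.

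More lncRNAs were higher after LNP-Gsdme than lower. Of the 262 members, 261 passed the low-count filter and were tested; 21 rose, 6 fell and 234 did not pass the test (edgeR quasi-likelihood test, p-values adjusted by Benjamini-Hochberg over 16010 genes, call below 0.05). The 27 called members are 10.3% of those tested, beside 11.6% of all genes. By direction, 8.05% of the members rose, beside 6.30% of all genes, and 2.30% fell, beside 5.32% of all genes. Because the limit was set on the mean of both groups, 8 of the 27 called members were under 2 CPM in 1 group, 7 of them rising members that were under it in LNP-GFP, so these shares are a description. The median log2 fold change of the members was 0.14 (quartiles -0.12 and 0.42), beside -0.01 over all tested genes and 0.01 over tested protein-coding genes.

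These calls depended on which libraries were in the fit. Without LNP-GFP 3, 0 members rose and 0 fell, with 52 at an unadjusted edgeR p below 0.05, and the share of all genes called was 0.543%. The 27 called members then had edgeR adjusted p-values of 0.0548 to 0.165. Without LNP-Gsdme 1, 2 members rose and 0 fell, and without LNP-Gsdme 2, 2 rose and 1 fell. Ly6a2 was called in both of these fits, Mir17hg without LNP-Gsdme 1, and Gm19951 and AI506816 without LNP-Gsdme 2. The counts were 18 and 5 without LNP-Gsdme 3, 32 and 11 without LNP-GFP 1, and 11 and 2 without LNP-GFP 2. The share of all genes called moved as well. It was 0.926% without LNP-Gsdme 1, 1.13% without LNP-Gsdme 2 and 12.9% without LNP-Gsdme 3. Without LNP-GFP 1 it was 17.4%, and without LNP-GFP 2 it was 5.86%.

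**Figure D1:**
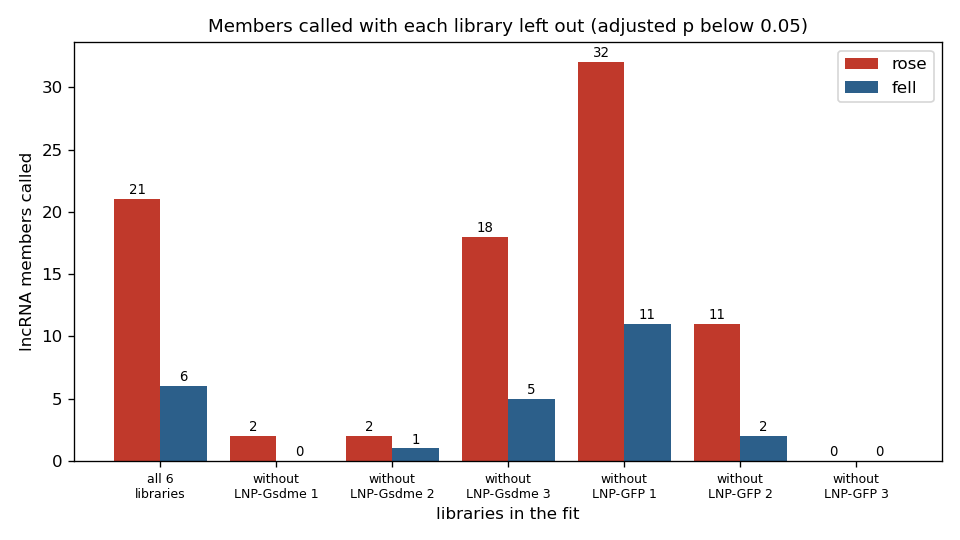
Number of lncRNA members called (vertical axis) as risen (red) or fallen (blue) with all 6 libraries and with each library left out in turn (horizontal axis). With all libraries 21 rose and 6 fell, without LNP-GFP 3 none was called either way, and without LNP-GFP 1 the counts were 32 and 11.

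For each of the 27 called members the 2 groups were fully separate. In all, every LNP-Gsdme library was above every LNP-GFP library in 61 members, 23.4% beside 22.2% of all tested genes, and below in 21 members, 8.05% beside 16.0%. Levels of the members varied more between libraries of 1 group than those of coding genes, with no match for level. The median coefficient of variation was 14.6% for members in LNP-Gsdme and 17.6% in LNP-GFP, beside 9.9% and 12.5% for tested protein-coding genes. The median member had 4.33 CPM, and counting error is larger at low counts. This difference therefore cannot be read as a property of lncRNAs.

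**Figure D2:**
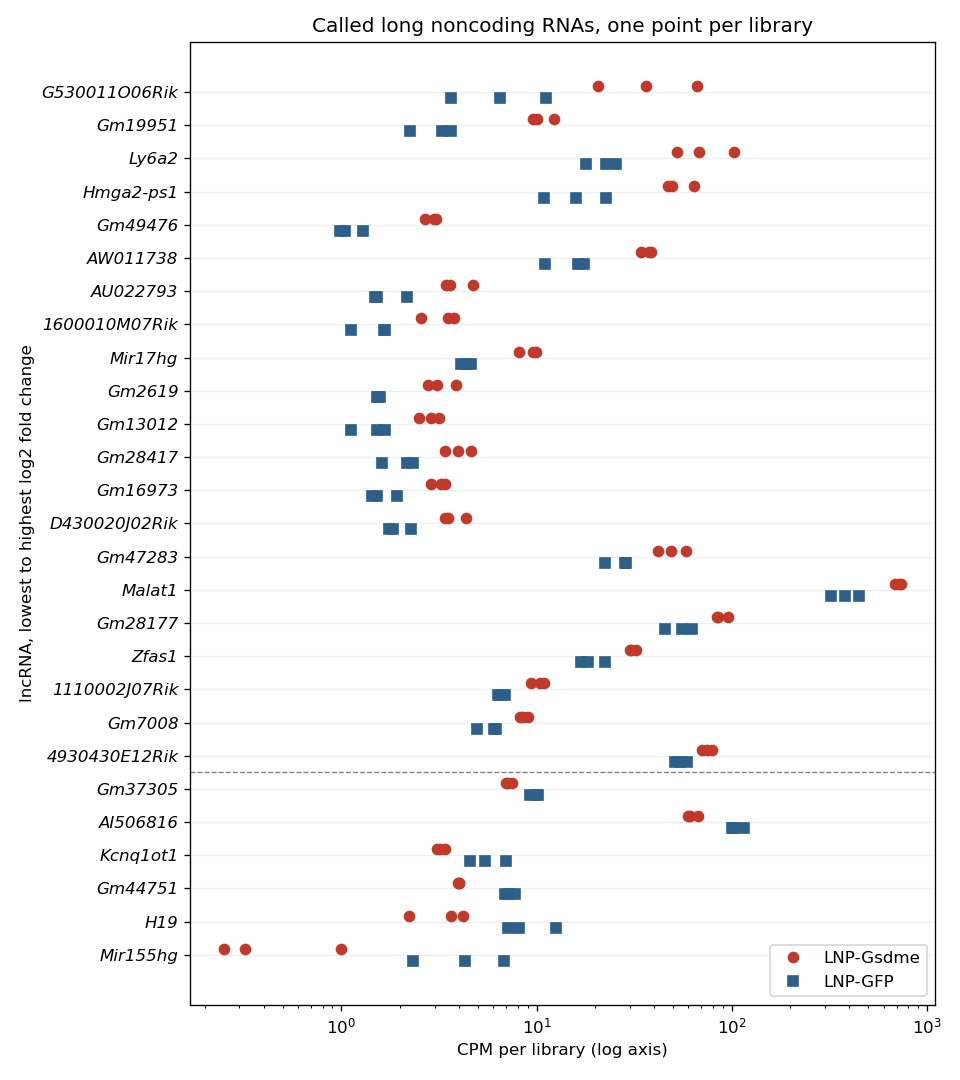
CPM in each library (horizontal log axis) of the 27 called lncRNAs, ordered by log2 fold change, with LNP-Gsdme as red circles and LNP-GFP as blue squares. In each of the 21 lncRNAs above the dashed line the 3 LNP-Gsdme libraries lie to the right of the 3 LNP-GFP libraries, and in the 6 below it they lie to the left.

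The members held a small part of the RNA, and that part was larger in LNP-Gsdme. They took 0.380, 0.382 and 0.385% of all counts in LNP-Gsdme, against 0.321, 0.296 and 0.308% in LNP-GFP. The groups did not overlap, which is a description, since the members were chosen by their level: 15 of them were under 2 CPM in LNP-Gsdme and 25 in LNP-GFP. Malat1 alone took 0.0716% in LNP-Gsdme and 0.0384% in LNP-GFP on average. The other members together took 0.311% in LNP-Gsdme and 0.270% in LNP-GFP. Levels were spread widely: the median member had 4.33 CPM, 63 had at least 10 CPM and 13 had at least 50 CPM. The deposited FPKM divides by a length set for each gene. On that scale the highest medians over the libraries were 88.6 for Gm10076, 67.6 for Mir22hg, 54.6 for Malat1 and 48.4 for 4930430E12Rik. That length is not always the span of the gene. Gas5 (chr1:160861992-160866116) averaged 58.0 CPM but 0.958 FPKM in LNP-Gsdme, which takes a length well above its span. These medians are therefore not a safe ranking of the members by level.

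Malat1 (chr19:5845717-5852704, GRCm39, as are all gene positions here), which concentrates in nuclear speckles beside splicing factors, was the member with the most counts. It reached 689, 740 and 719 CPM in LNP-Gsdme, against 450, 323 and 379 CPM in LNP-GFP. The 3 LNP-Gsdme libraries were close together and all above the control libraries, and the log2 fold change of Malat1 was 0.87 ± 0.12 (SE; adjusted p = 0.0129). Of the 8 measured members of the nuclear body and chromatin list, Malat1 rose, Kcnq1ot1 fell and the other 6 did not pass the test; the list's median log2 fold change was 0.22. Neat1, the scaffold of paraspeckles and Malat1's neighbour on chromosome 19, had 25.2 ± 10.1 CPM in LNP-Gsdme and 24.6 ± 4.36 CPM in LNP-GFP (SD, n = 3 each), a log2 fold change of 0.00 ± 0.30 (SE; adjusted p = 0.996). Norad, a cytoplasmic lncRNA that binds Pumilio proteins, averaged 191 CPM in LNP-Gsdme and 168 CPM in LNP-GFP, with a log2 fold change of 0.15 (adjusted p = 0.197). Leaving out LNP-GFP 3 gave Malat1 an adjusted p of 0.0826.

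Kcnq1ot1 (chr7:142757195-142850286) is read antisense to the potassium channel gene Kcnq1 and silences genes of its imprinted domain in cis. It had 3.39, 3.19 and 3.09 CPM in LNP-Gsdme and 4.54, 6.94 and 5.44 CPM in LNP-GFP, and fell with a log2 fold change of -0.83 ± 0.20 (SE; adjusted p = 0.0460, 0.149 without LNP-GFP 3). Kcnq1 itself had 1.14 ± 0.720 CPM in LNP-Gsdme and 3.54 ± 0.726 CPM in LNP-GFP (SD, n = 3 each), a log2 fold change of -1.64 with an adjusted p of 0.0566. Since both occupy the same bases on opposite strands and the strand setting of the counting is not given, counts of this pair cannot be told apart with certainty.

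H19, an imprinted growth-related lncRNA that carries miR-675, was the only called member of the 4 measured on the imprinted and mesenchymal list. H19 (chr7:142129262-142131886) had 2.22, 3.63 and 4.21 CPM in LNP-Gsdme, against 12.6, 8.15 and 7.12 CPM in LNP-GFP. It fell with a log2 fold change of -1.50 ± 0.30 (SE; adjusted p = 0.0299). The other 3 did not pass the test, and the list's median log2 fold change was -0.90. Meg3 and Rian, maternally expressed transcripts of the Dlk1-Dio3 imprinted domain, had log2 fold changes of -0.999 (adjusted p = 0.0784) and -0.80 (adjusted p = 0.154). Peg13, the member of the list with the most counts, averaged 14.7 CPM in LNP-Gsdme and 16.6 CPM in LNP-GFP (adjusted p = 0.396). Leaving out LNP-GFP 3 gave H19 an adjusted p of 0.0980.

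Markers of fibroblasts differed in the same direction as H19. All 7 fibroblast markers were tested, 4 of them fell and none was at 0 in all libraries; their summed level was 2883, 2157 and 5793 CPM in LNP-Gsdme and 9035, 9885 and 9446 CPM in LNP-GFP. LNP-Gsdme 3, the library with the most fibroblast marker counts of its group, also had the highest H19 and Meg3 of that group, at 4.21 and 9.33 CPM. Other libraries went the other way. LNP-Gsdme 2 had a lower marker sum than LNP-Gsdme 1 but more H19, at 3.63 against 2.22 CPM. LNP-GFP 1 had the lowest marker sum of its group and the highest H19, at 12.6 CPM. The sum of the 7 melanoma markers was 122 to 750 CPM in LNP-Gsdme and 324 to 1714 CPM in LNP-GFP, with no marker called. The part of these cells in the H19 result was not tested, and in such bulk libraries fewer cells of a type and less RNA per cell cannot be told apart.

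Of the 4 measured members of the microRNA host list, Mir17hg rose, Mir155hg fell and the other 2 did not pass the test; the median log2 fold change was -0.15. Mir155hg (chr16:84500055-84512133), whose miR-155 is induced when macrophages, dendritic cells and lymphocytes are activated, had 0.999, 0.250 and 0.320 CPM in LNP-Gsdme, against 4.32, 6.81 and 2.32 CPM in LNP-GFP. This was the largest fall among the called members, with a log2 fold change of -3.10 ± 0.62 (SE; adjusted p = 0.0296). LNP-Gsdme 2 and LNP-Gsdme 3 stood at the bottom, and the lowest control library was still above LNP-Gsdme 1. Markers of conventional dendritic cells were lower in the same libraries: 2 of 6 fell, none was at 0 in all libraries, and they summed to 69.7 to 104 CPM in LNP-Gsdme and 121 to 158 CPM in LNP-GFP. Most of this sum was Ccr7, at 70.8 CPM in LNP-Gsdme and 112 CPM in LNP-GFP, which was not called (adjusted p = 0.0684). Xcr1 and Cd209a, which fell, averaged 0.972 and 0.722 CPM in LNP-Gsdme and 2.63 and 5.23 CPM in LNP-GFP. Within the groups the marker sum and Mir155hg did not always go together. LNP-GFP 2 had the highest of both in its group, and LNP-Gsdme 3 had less of both than LNP-Gsdme 1. LNP-Gsdme 2 had the highest marker sum of its group but the lowest Mir155hg. LNP-GFP 3 had a higher sum than LNP-GFP 1, at 142 against 121 CPM, but less Mir155hg. The part of dendritic cells in the Mir155hg result was not tested.

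Mir17hg (chr14:115280311-115284159), the primary transcript of a microRNA cluster tied to proliferation, had 8.10, 9.57 and 9.92 CPM in LNP-Gsdme. It had 4.62, 4.08 and 4.35 CPM in LNP-GFP, where the 3 libraries were close together. The rise had a log2 fold change of 1.05 ± 0.13 (SE; adjusted p = 0.00991). All 6 RefSeq hairpins of the cluster lie inside the GENCODE M21 span of this gene. Mir22hg and Mir142hg, hosts of the myeloid-expressed miR-22 and miR-142, averaged 139 and 39.1 CPM in LNP-Gsdme and 160 and 39.7 CPM in LNP-GFP, and neither was called (log2 fold changes -0.24 and -0.06). Without LNP-GFP 3 the adjusted p was 0.0732 for Mir17hg and 0.0821 for Mir155hg. In all, 12 members hold 22 RefSeq hairpins: the hosts Mir17hg, Mir155hg and H19 were called and the other 9 were not. Among these, F630028O10Rik, which holds the hairpin of the myeloid miR-223, had 2.67 CPM in LNP-Gsdme and 2.05 CPM in LNP-GFP (log2 fold change 0.36, adjusted p = 0.399).

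Of the hosts of small nucleolar RNAs, Zfas1 alone passed the test. These transcripts carry snoRNAs, the guides of ribosomal RNA modification, in their introns. Of 13 measured, 1 rose, 0 fell and 12 did not pass, with log2 fold changes from -0.28 to 0.82 among the 12 and a list median of 0.10. Zfas1 (chr2:166904854-166907783) had 30.3, 32.3 and 30.3 CPM in LNP-Gsdme and 16.9, 22.3 and 18.2 CPM in LNP-GFP, a log2 fold change of 0.66 ± 0.13 (SE; adjusted p = 0.0270, 0.122 without LNP-GFP 3). It overlaps the coding gene Znfx1, on the opposite strand, which had a log2 fold change of 0.38 (adjusted p = 0.275). Gas5, the host with the most counts, averaged 58.0 ± 4.64 CPM in LNP-Gsdme and 55.3 ± 0.563 CPM in LNP-GFP (SD, n = 3 each), a log2 fold change of 0.04 ± 0.08 (SE; adjusted p = 0.745).

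None of the 4 measured lncRNAs on the immune and myeloid list passed the test, and their median log2 fold change was 0.02. AW112010, an interferon-inducible transcript of mouse macrophages with a short translated reading frame, came closest. It had 127, 97.9 and 101 CPM in LNP-Gsdme and 89.3, 55.1 and 77.2 CPM in LNP-GFP. The groups did not overlap, yet the log2 fold change of 0.53 ± 0.19 (SE) had an adjusted p of 0.119. Morrbid, which supports the survival of short-lived myeloid cells, averaged 13.5 CPM in LNP-Gsdme and 12.2 CPM in LNP-GFP. Ptgs2os2, a regulator of inflammatory genes in macrophages, averaged 5.18 CPM in LNP-Gsdme and 5.68 CPM in LNP-GFP. Their adjusted p-values were 0.648 and 0.677, and that of Mirt1 was 0.905.

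**Figure D3:**
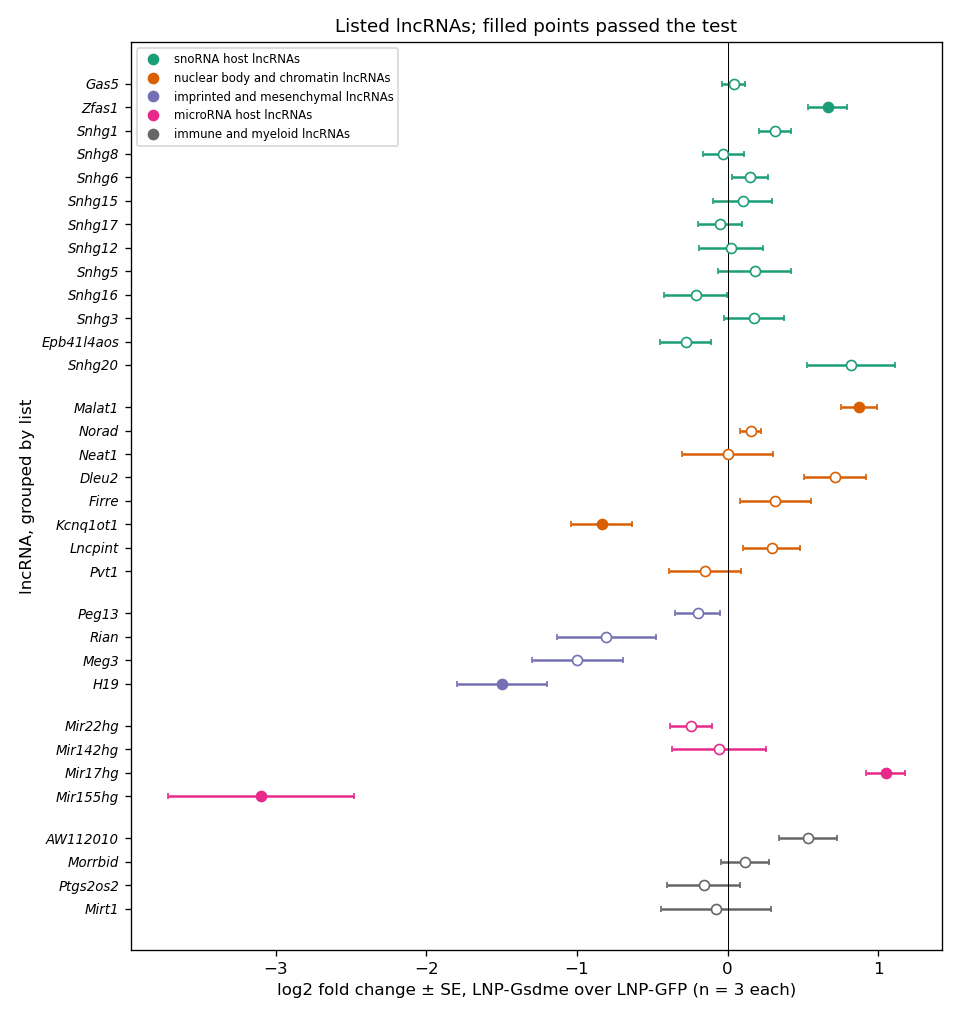
Log2 fold change of LNP-Gsdme over LNP-GFP (horizontal axis, bars are the SE of the edgeR fit, n = 3 libraries per group) for the 33 measured lncRNAs of 5 lists, coloured by list. Filled points passed the test: Zfas1, Malat1 and Mir17hg lie to the right of 0 and Kcnq1ot1, H19 and Mir155hg to the left.

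AW011738, which rose, lies beside an interferon-stimulated coding gene. A list of such genes had 62 tested members, of which 30 rose, beside 6.30% of all genes, and 0 fell (median log2 fold change 0.59). Within 100 kb of a listed gene lay 9 members, of which 2 rose, 0 fell and 7 did not pass the test. AW011738 (chr4:156287727-156295020) starts 2474 bases from Isg15, which encodes a ubiquitin-like protein induced by interferon. AW011738 had 37.6, 38.6 and 34.5 CPM in LNP-Gsdme, against 17.5, 11.1 and 16.4 CPM in LNP-GFP, a log2 fold change of 1.27 ± 0.18 (SE; adjusted p = 0.0131). Isg15 had 719, 723 and 617 CPM in LNP-Gsdme, against 286, 362 and 337 CPM in LNP-GFP, a log2 fold change of 1.04 ± 0.13 (SE; adjusted p = 0.00991). In both genes the LNP-Gsdme libraries were all above the control libraries. Without LNP-GFP 3 the adjusted p was 0.0719 for AW011738 and 0.0679 for Isg15. AW011738 was protein-coding in the older GENCODE M21 annotation.

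The promoters of this pair are shown because the genes rose together. Both are RefSeq windows on GRCm38.p6, from 250 bases before to 50 bases after the start, chr4:156203034-156203333 on the plus strand for AW011738 and chr4:156200769-156201068 on the minus strand for Isg15. Capitals mark matches to the core of the interferon-stimulated response element (ISRE), a pair of GAAA with any 2 bases between, searched on both strands.
AW011738: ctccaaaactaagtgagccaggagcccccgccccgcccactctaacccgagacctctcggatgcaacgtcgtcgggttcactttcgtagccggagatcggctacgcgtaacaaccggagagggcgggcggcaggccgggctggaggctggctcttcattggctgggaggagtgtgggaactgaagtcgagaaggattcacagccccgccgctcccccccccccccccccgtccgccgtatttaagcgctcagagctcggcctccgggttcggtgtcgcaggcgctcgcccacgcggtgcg
Isg15: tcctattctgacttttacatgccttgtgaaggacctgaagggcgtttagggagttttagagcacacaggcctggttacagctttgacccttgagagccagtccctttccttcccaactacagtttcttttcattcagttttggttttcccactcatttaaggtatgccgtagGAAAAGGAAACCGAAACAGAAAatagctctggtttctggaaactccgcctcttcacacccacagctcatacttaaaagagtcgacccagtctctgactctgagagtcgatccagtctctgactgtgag
The Isg15 window holds 3 overlapping matches and the AW011738 window holds none. Among all 32851 RefSeq promoter windows 3.44% hold the ISRE core, and among 166 windows of 140 members 4.82% do. The same shares were 8.3% and 4.22% for TTCNNNGAA, the gamma-activated sequence motif, and 7.81% and 7.83% for the AP-1 motif TGANTCA, so neither was more common among the members. Of the 16 called members with a window, 1600010M07Rik held an ISRE core, Gm19951 held TTCNNNGAA, and 1110002J07Rik, D430020J02Rik and Gm16973 held TGANTCA.

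Gm28177 had 84.1, 96.2 and 84.7 CPM in LNP-Gsdme and 55.9, 45.4 and 62.2 CPM in LNP-GFP, a log2 fold change of 0.67 ± 0.13 (SE; adjusted p = 0.0263, 0.0732 without LNP-GFP 3). The 3 LNP-Gsdme libraries were all above the control libraries. Gm28177 overlaps a listed interferon-stimulated coding gene, which also rose. A coding gene at this place is on the same strand, so the counts of Gm28177 could hold its reads under any strand setting. Gm20559, near the interferon-induced Samd9l, averaged 70.2 CPM in LNP-Gsdme and 50.9 CPM in LNP-GFP without passing the test (adjusted p = 0.132). Gm2619 lies in a cluster of Sp100-family genes on chromosome 1 and rose by 1.04 ± 0.20 on the log2 scale (SE; adjusted p = 0.0261), with 2.78, 3.88 and 3.09 CPM in LNP-Gsdme and 1.57, 1.52 and 1.53 CPM in LNP-GFP. This is a multigene family with similar copies, so its counts are uncertain. GENCODE M21 typed Gm2619 as a transcribed unprocessed pseudogene.

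Ly6a2 (chr15:75002080-75006984), a gene of the Ly6 family that the deposited table types as lncRNA, had 103, 52.2 and 67.9 CPM in LNP-Gsdme. It had 18.01, 22.6 and 25.5 CPM in LNP-GFP, so that even the lowest LNP-Gsdme library was above all controls. The rise had a log2 fold change of 1.73 ± 0.28 (SE; adjusted p = 0.0196, 0.0869 without LNP-GFP 3). It lies 18261 bases from Ly6c2, the gene of the Ly6C antigen that defines the gate. Ly6c2 averaged 1556 ± 268 CPM in LNP-Gsdme and 242 ± 28.9 CPM in LNP-GFP (SD, n = 3 each), a log2 fold change of 2.66 ± 0.16 (SE; adjusted p = 0.00219, 0.0269 without LNP-GFP 3), and stayed called in all 13 alternative fits. Ly6c1, further along the same cluster, rose by 1.81 on the log2 scale (adjusted p = 0.00991). Ly6 genes are close paralogs, and the labels used here do not say how reads shared between them were counted. A second entry named Ly6a2, typed as a transcribed unprocessed pseudogene, lies within the same span (chr15:75003524-75006673). That entry averaged 0.0625 CPM in LNP-Gsdme and 0.0444 CPM in LNP-GFP and was not tested.

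The largest rise was that of G530011O06Rik (chrX:168758039-168761913), which overlaps Mid1, a microtubule-associated ubiquitin ligase, on the opposite strand. It had 36.3, 20.6 and 66.2 CPM in LNP-Gsdme, which spread over a wide range, and 11.2, 3.63 and 6.47 CPM in LNP-GFP. The log2 fold change was 2.50 ± 0.53 (SE; adjusted p = 0.0346, 0.140 without LNP-GFP 3). Mid1 had 6.66, 6.44 and 11.3 CPM in LNP-Gsdme and 3.93, 3.05 and 3.56 CPM in LNP-GFP, and rose by 1.18 ± 0.24 on the log2 scale (SE; adjusted p = 0.0315, 0.130 without LNP-GFP 3). RefSeq lists G530011O06Rik on both sex chromosomes, so its reads could come from either copy. Gm47283, on chromosome Y, had 58.5, 48.7 and 42.0 CPM in LNP-Gsdme and 28.8, 22.5 and 28.5 CPM in LNP-GFP, and rose by 0.88 ± 0.16 on the log2 scale (SE; adjusted p = 0.0254).

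Gm19951 (chr12:99609334-99613482) had 10.05, 12.3 and 9.55 CPM in LNP-Gsdme, against 3.66, 2.24 and 3.26 CPM in LNP-GFP, and rose with a log2 fold change of 1.77 ± 0.21 (SE; adjusted p = 0.00958, 0.0679 without LNP-GFP 3). Its nearest coding gene, Efcab11, is 45822 bases away and was not called (log2 fold change 0.10, adjusted p = 0.889). Hmga2-ps1 (chr1:176662183-176663734), named as a pseudogene of the chromatin protein gene Hmga2, lies inside Sdccag8. It had 47.3, 63.8 and 49.5 CPM in LNP-Gsdme, against 22.8, 10.9 and 15.9 CPM in LNP-GFP, a log2 fold change of 1.67 ± 0.27 (SE; adjusted p = 0.0194). Sdccag8, a centrosomal protein gene, averaged 28.5 CPM in LNP-Gsdme and 12.99 CPM in LNP-GFP and rose by 1.11 on the log2 scale (adjusted p = 0.0225, 0.111 without LNP-GFP 3). Gm49476 (chr15:81741942-81742506) lies over Tob2, an antiproliferative gene, on the opposite strand. It had 3.05, 2.69 and 2.99 CPM in LNP-Gsdme and 1.05, 0.986 and 1.29 CPM in LNP-GFP, a log2 fold change of 1.37 ± 0.20 (SE; adjusted p = 0.0142). Tob2 averaged 253 CPM in LNP-Gsdme and 167 CPM in LNP-GFP and rose by 0.57 on the log2 scale (adjusted p = 0.0117, 0.0782 without LNP-GFP 3). Without LNP-GFP 3 the adjusted p was 0.105 for Hmga2-ps1 and 0.0731 for Gm49476.

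The other rises named were of low level. AU022793 had 3.61, 3.44 and 4.75 CPM in LNP-Gsdme and 1.48, 1.52 and 2.18 CPM in LNP-GFP, a log2 fold change of 1.16 (adjusted p = 0.0289). For 1600010M07Rik the values were 2.55, 3.50 and 3.79 CPM in LNP-Gsdme and 1.66, 1.12 and 1.68 CPM in LNP-GFP, a log2 fold change of 1.11 (adjusted p = 0.0361). It covers the nuclear import gene Ipo7 on the opposite strand, which was not called (log2 fold change -0.07, adjusted p = 0.533). Gm13012, antisense to the endothelin-converting enzyme gene Ece1, and Gm28417, antisense to the phosphatase gene Ptpn18, averaged 2.85 and 3.99 CPM in LNP-Gsdme and 1.44 and 2.04 CPM in LNP-GFP. Their log2 fold changes were 0.96 and 0.94 (adjusted p = 0.0441 and 0.0423), while Ece1 and Ptpn18 were not called. These 4 lncRNAs had adjusted p-values of 0.0859 to 0.124 without LNP-GFP 3. The remaining 5 risen members, with log2 fold changes of 0.42 to 0.94, were 4930430E12Rik, Gm7008, 1110002J07Rik, D430020J02Rik and Gm16973. Of these, 4930430E12Rik had 70.1, 74.7 and 79.6 CPM in LNP-Gsdme and 51.2, 59.2 and 54.2 CPM in LNP-GFP.

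Among the falls, AI506816 (chr5:23903294-23917684) had the highest level and the smallest adjusted p of any member. It had 61.2, 59.9 and 66.9 CPM in LNP-Gsdme, against 101, 116 and 101 CPM in LNP-GFP, and fell with a log2 fold change of -0.79 ± 0.09 (SE; adjusted p = 0.00828, 0.0548 without LNP-GFP 3). Its nearest coding gene Srpk2, a kinase of splicing factors, was not called (log2 fold change 0.18, adjusted p = 0.280). Gm44751 (chr7:87960686-87965072), 590 bases from the lysosomal protease gene Ctsc, had 3.997, 4.002 and 3.946 CPM in LNP-Gsdme and 7.72, 7.21 and 6.92 CPM in LNP-GFP. It fell by 0.90 ± 0.12 on the log2 scale (SE; adjusted p = 0.0131), while Ctsc had a log2 fold change of 0.47 (adjusted p = 0.139). Gm37305, antisense to the cyclin gene Ccnl1, averaged 7.21 CPM in LNP-Gsdme and 9.83 CPM in LNP-GFP and had the smallest fall, with a log2 fold change of -0.47 (adjusted p = 0.0409). Without LNP-GFP 3 the adjusted p was 0.0782 for Gm44751 and 0.165 for Gm37305.

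**Figure D4:**
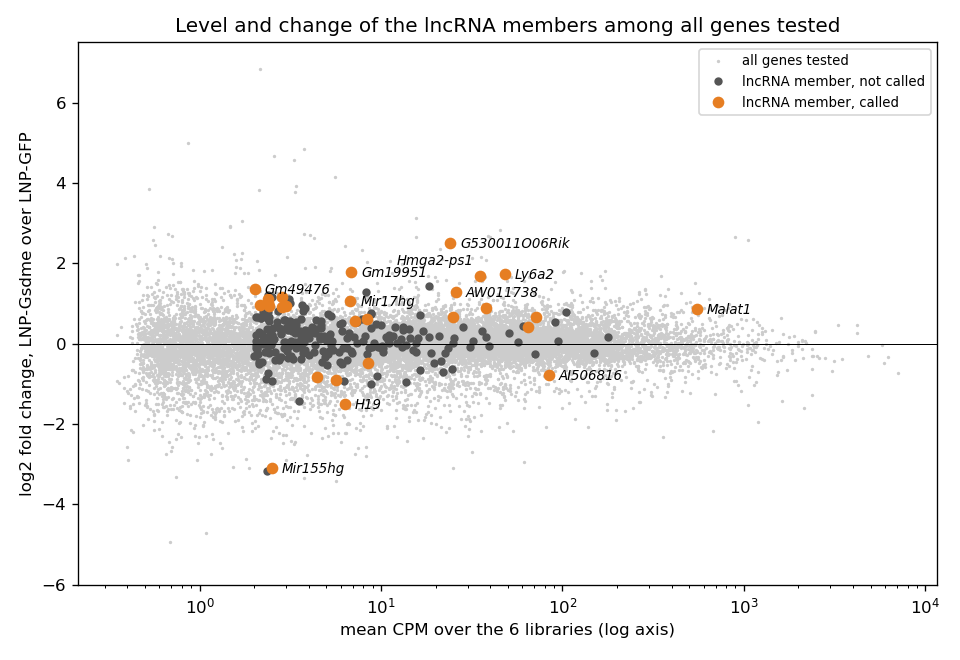
Mean CPM over the 6 libraries (horizontal log axis) against the log2 fold change of LNP-Gsdme over LNP-GFP (vertical axis) for all 16010 tested genes in grey, uncalled lncRNA members in black and the 27 called members in orange. Malat1 has the highest level, most members lie under 10 CPM, and Mir155hg and G530011O06Rik are the called members farthest from 0.

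Some members with many counts lay outside the calls. Gm36161, the fourth by CPM, had 147, 128 and 124 CPM in LNP-Gsdme and 97.3, 54.7 and 76.0 CPM in LNP-GFP. The groups did not overlap and the log2 fold change was 0.78 ± 0.20 (SE), with an adjusted p of 0.0553. AI504432 averaged 97.6 ± 3.68 CPM in LNP-Gsdme and 91.9 ± 11.2 CPM in LNP-GFP (SD, n = 3 each; log2 fold change 0.06, adjusted p = 0.702).

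Many members are encoded over or beside coding genes, and the log2 fold changes of such pairs were weakly correlated. Of the 262 members, 136 overlap a protein-coding gene, 105 of them on the opposite strand and 27 on the same strand, and 27 more lie head to head with one within 2 kb. Among the 135 tested members that overlap a coding gene 10 rose and 2 fell, and among the 126 that do not 11 rose and 4 fell. Across 222 members whose nearest coding gene within 100 kb was also tested, the log2 fold changes of the pair had a Pearson r of 0.36 and a Spearman rho of 0.42, and 65.3% had the same sign. For the 100 pairs without overlap r was 0.31, and for the 122 with overlap it was 0.40. Between tested coding genes and their own nearest coding neighbour r was 0.18 over 9587 pairs, with 54.7% of the same sign. These correlations run across genes of the same 6 libraries, and genes are not independent replicates.

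Of the 27 called members, 8 had a nearest coding gene called in the same direction (29.6%, beside 158 of 1576 called coding genes), and 1 had a neighbour called the other way. All 8 members sharing direction were in rising pairs, among them Gm7008 with Ifrd1, D430020J02Rik with Ncapg2, AW011738 with Isg15 and Gm49476 with Tob2. Hmga2-ps1 with Sdccag8, Ly6a2 with Ly6c2 and G530011O06Rik with Mid1 were also among them. D430020J02Rik starts 192 bases from Ncapg2, a condensin gene, head to head; their log2 fold changes were 0.91 and 0.58. The exception was 1110002J07Rik, which rose by 0.61 on the log2 scale while Reep3, 88931 bases away, fell by 0.35. Among the 15 called members that overlap no coding gene 3 shared the direction of their neighbour, and among the 12 that do, 5 did. Where the genes overlap, the deposited counts do not show which of them a read came from. The count of shared directions was 0 without LNP-GFP 3, 1 without LNP-Gsdme 1 and 1 without LNP-Gsdme 2. It was 5 without LNP-GFP 2, 7 without LNP-Gsdme 3 and 10 without LNP-GFP 1.

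**Figure D5:**
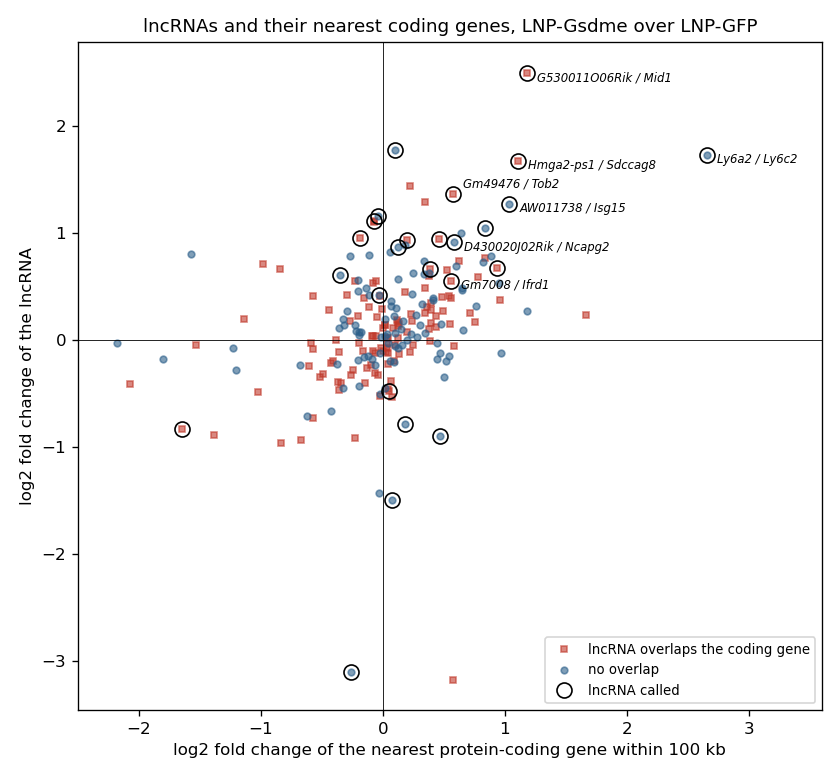
Log2 fold change of the nearest protein-coding gene within 100 kb (horizontal axis) against that of the lncRNA (vertical axis), LNP-Gsdme over LNP-GFP, for 222 pairs; red squares overlap the coding gene, blue circles do not, and rings mark called lncRNAs. The labelled pairs, all in the upper right, are among the 8 called in the same direction, with Ly6a2 and Ly6c2 farthest to the right and G530011O06Rik and Mid1 at the top.

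Markers of other cell types had counts in all libraries. The 6 T cell markers summed to 324 to 398 CPM in LNP-Gsdme and 126 to 361 CPM in LNP-GFP, with none called. The 6 NK cell markers summed to 135 to 177 CPM in LNP-Gsdme and 34.5 to 125 CPM in LNP-GFP, and 1 of the 5 tested rose. The 7 neutrophil markers summed to 227 to 408 CPM in LNP-Gsdme and 164 to 369 CPM in LNP-GFP, and the 5 B cell markers to 3.73 to 5.11 CPM in LNP-Gsdme and 3.45 to 4.84 CPM in LNP-GFP, with none of either list called. The 5 plasmacytoid dendritic cell markers summed to 58.2 to 93.1 CPM in LNP-Gsdme and 82.9 to 86.7 CPM in LNP-GFP, and 1 of them fell. The 5 endothelial markers summed to 195 to 251 CPM in LNP-Gsdme and 247 to 288 CPM in LNP-GFP, with none called. No marker of these lists was at 0 in all libraries. The part of these cells in the rises of Malat1, Mir17hg and the other members was not tested.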

How the data were processed

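RNA sequencing libraries of sorted tumour monocytes, 3 after LNP-Gsdme and 3 after LNP-GFP, were grouped by their treatment label. Per the labels' protocols, total RNA was column-purified, treated with DNase, bead-cleaned and built into TruSeq libraries for paired-end reads. The authors deposited 1 table with raw counts and FPKM per gene and library, per the file headers. The submitters' processing notes name GRCm39. Aligner, counting tool, strand setting and annotation release are not given in the labels or headers used. The deposited counts are whole numbers and were not normalized. The deposited FPKM values were found to equal counts over the library total and a length that is the same in all libraries (11356 genes, largest difference 0.00178%). How that length was set is not given, and FPKM served only to describe the highest members.

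CPM here is a count over its column total, times 1000000. Counts were tested in R 4.3.3 with edgeR 4.0.16 (filterByExpr by group, TMM factors 0.980 to 1.04, robust quasi-likelihood test, biological coefficient of variation 0.193), and p-values were adjusted over all 16010 tested genes with the Benjamini-Hochberg method. A gene was called at an adjusted p below 0.05, and adjusted p-values in the text are from this test. Fold changes set LNP-Gsdme over LNP-GFP, on the log2 scale. The script was tested on simulated data with 200 changed genes. Nearest coding genes within 100 kb were taken from the deposited positions, and strand and biotype by gene ID from GENCODE M21. The GENCODE M21 coordinates were used only to place RefSeq hairpins inside members on the same strand. Sequences are RefSeq's on GRCm38.p6.

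The members and gene lists (21, 16, 14, 12 and 10 lncRNA symbols, 63 interferon-stimulated genes and 10 marker lists) were chosen with earlier results of these data known. Named genes are each list's called members and its highest by CPM, up to 12 rises and 12 falls by size among called members, the 8 highest members, nearest coding genes of the named rises and falls, and the members at the rule's edge. Lists with 4 measured members are given whole. Other genes named in the text were chosen after their values were seen. Alternatives were other scaling factors, DESeq2 1.42.0, limma-voom (limma 3.58.1), low-count filters, the replicate number as a block, and each library left out. Values of some single genes are not reported here.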

Additional observations from a re-analysis of the deposited data

How the results depend on the processing

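Other scaling factors, limma-voom and the low-count filters gave 17 to 23 risen and 4 to 6 fallen members, and DESeq2 gave 28 and 11. Leaving out each library gave 0 to 32 risen and 0 to 11 fallen members. The median log2 fold change of the members stayed between 0.11 and 0.17 in all alternatives. The difference in share of counts, 0.0743 percentage points, was 0.0411 without Malat1 and 0.0683 to 0.0806 with a library left out. Shared direction with the nearest coding gene held for 8 called members, 7 within 10 kb, 3 without those that overlap a coding gene, and 0 to 10 with a library left out.

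The labels used here do not say whether the replicate numbers pair the libraries. Deviations from the group means correlated at 0.22, -0.26 and 0.03 between same-numbered libraries, and at -0.34 to 0.34 between the others. These deviations sum to 0 within each group, so they cannot decide whether the numbers mark pairs. With the number as a replicate block, 0 members rose and 0 fell by edgeR, with 63 at an unadjusted p below 0.05; 103 and 52 of all genes did. Of 52 named genes, 33 were called and none of the 33 changed sign. Uncalled genes that did had log2 fold changes, over the fits with a library left out, of -0.0158 to 0.146 (AI504432), -0.0104 to 0.0929 (Gas5), -0.138 to 0.388 (Efcab11) and -0.211 to 0.175 (Lrp12); the cause was not tested. At 32.0 to 45.9 counts per library, members near the limit carry large counting error.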

Other observations

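Gm53015 was the only member not tested, because 1 library held nearly all of its counts. It had 0.111, 0.125 and 0.107 CPM in LNP-Gsdme, against 0.131, 26.5 and 0.198 CPM in LNP-GFP, so that LNP-GFP 2 was 134 times the next library. It lies at chr19:6806577-6807231 over Rps6ka4, which was not called (log2 fold change -0.14, adjusted p = 0.329). Gm20634, which overlaps the histone gene H3c14, had 1.39, 0 and 0 CPM in LNP-Gsdme and 7.68, 5.02 and 0 CPM in LNP-GFP. The groups overlapped and its log2 fold change was -3.17 ± 1.65 (SE; adjusted p = 0.237). In both genes LNP-GFP 3 did not lie midway between the other LNP-GFP libraries. Both were chosen after their values were seen.

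AI839979 was the uncalled member closest to the threshold. It had 25.8, 32.2 and 22.8 CPM in LNP-Gsdme and 14.5, 5.02 and 9.84 CPM in LNP-GFP, which did not overlap, and its log2 fold change was 1.44 ± 0.36 (SE; adjusted p = 0.0516). Gm28037 had 8.27, 22.2 and 5.17 CPM in LNP-Gsdme and 4.75, 3.90 and 5.63 CPM in LNP-GFP; LNP-Gsdme 2 was far above the others, and the groups overlapped (log2 fold change 1.29, adjusted p = 0.155). Both were chosen after their values were seen. By annotation, 8 members carry the name or description of a pseudogene, and 8 were protein-coding in GENCODE M21, among them the risen AW011738 and Gm47283. The risen Gm2619 was the only member that GENCODE M21 typed as a transcribed unprocessed pseudogene.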
